A study of Mus musculus with 7 samples.

Results

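The genes described are 10 small calcium-binding, lectin and cytoskeletal genes that are often read together as a memory and effector signature of T cells: S100a4, S100a6, S100a10, S100a11, Lgals1, Lgals3, Anxa2, Anxa5, Capg and Vim. They were taken by symbol from a list and are 10 of the 27514 genes counted in all 7 libraries of the study. The study profiled single spleen T cells of male C57BL/6 mice, 8 weeks old, with 10x Chromium 3′ kits. All sorts took CD3+ NK1.1- cells positive for the αβ and negative for the γδ T cell receptor. Naive DNT (double-negative T) cells were CD4- CD8- and did not bind aGal-CD1d or LPC-CD1d, tetramers that mark NKT cells; there were 2 libraries of them. The 2 libraries of activated DNT came from such naive cells after 3 days of culture with IL-2 at 20 ng/ml and stimulation through CD3 and CD28 by antibody. CD4 cells (CD4+ CD8-), CD8 cells (CD4- CD8+) and the parent gate with no selection on CD4 or CD8 (TCRab) gave 1 library each. No DNT cells cultured without stimulation were among the samples, so culture, stimulation and IL-2 cannot be told apart.

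S100 proteins are small EF-hand proteins that bind calcium and then their partners. S100A10 is the exception in that it does not respond to calcium and forms a stable complex with annexin A2 at membranes. Galectins are lectins that bind β-galactosides on glycoproteins, and galectin-1 and galectin-3 tune T cell receptor signalling and survival. Annexins bind acidic phospholipids in the presence of calcium; annexin A5 binds phosphatidylserine. CapG caps the barbed ends of actin filaments, and vimentin forms the intermediate filaments of lymphocytes. Memory and effector T cells are known to carry more transcripts of several of these genes than T cells that have not met antigen.

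All 10 gene identifiers matched GENCODE vM21 on build GRCm38. The 4 S100 genes lie on chromosome 3 in 2 pairs: S100a4 (ENSMUSG00000001020, 90603771 to 90606045) ends 6837 bases before S100a6 (ENSMUSG00000001025, 90612882 to 90624181), and S100a11 (ENSMUSG00000027907, 93520488 to 93526287) ends 28793 bases before S100a10 (ENSMUSG00000041959, 93555080 to 93564643). All 4 are on the plus strand, and the pairs are 2896307 bases apart. Anxa5 (ENSMUSG00000027712, 36448923 to 36475894, minus strand) lies elsewhere on the same chromosome. Lgals1 (ENSMUSG00000068220) is on chromosome 15 at 78926725 to 78930465, Lgals3 (ENSMUSG00000050335) on chromosome 14 at 47367751 to 47386160, and Anxa2 (ENSMUSG00000032231) on chromosome 9 at 69453620 to 69491795. Capg (ENSMUSG00000056737) is on chromosome 6 at 72544391 to 72562983 and Vim (ENSMUSG00000026728) on chromosome 2 at 13573927 to 13582826.

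RefSeq promoter entries for build GRCm38.p6 were matched for 8 of the 10 genes, and 250 bases before the transcript start were searched on both strands for 4 motifs. Shown are S100a4 and S100a6, the S100 genes whose transcripts were found in the same cells most often relative to their shares. S100a11 and Anxa2 are also shown and hold the AP-1 letters TGANTCA. Capitals mark AP-1 matches.
S100a4, chr3:90603520-90603769 (plus strand): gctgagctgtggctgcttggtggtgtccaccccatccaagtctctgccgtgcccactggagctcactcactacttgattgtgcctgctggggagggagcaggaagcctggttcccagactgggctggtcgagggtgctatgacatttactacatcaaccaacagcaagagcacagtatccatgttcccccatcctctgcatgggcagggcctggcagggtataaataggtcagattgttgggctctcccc
S100a6, chr3:90612644-90612893 (plus strand): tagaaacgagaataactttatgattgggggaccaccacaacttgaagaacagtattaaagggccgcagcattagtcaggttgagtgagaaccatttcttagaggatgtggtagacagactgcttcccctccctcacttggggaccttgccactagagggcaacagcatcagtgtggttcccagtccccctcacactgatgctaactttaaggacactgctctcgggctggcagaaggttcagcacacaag
S100a11, chr3:93520246-93520495 (plus strand): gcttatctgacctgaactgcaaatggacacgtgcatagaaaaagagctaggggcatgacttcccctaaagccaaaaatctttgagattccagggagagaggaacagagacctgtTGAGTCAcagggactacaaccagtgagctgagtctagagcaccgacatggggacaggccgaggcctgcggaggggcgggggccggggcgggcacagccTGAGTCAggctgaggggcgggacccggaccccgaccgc
Anxa2, chr9:69453433-69453682 (plus strand): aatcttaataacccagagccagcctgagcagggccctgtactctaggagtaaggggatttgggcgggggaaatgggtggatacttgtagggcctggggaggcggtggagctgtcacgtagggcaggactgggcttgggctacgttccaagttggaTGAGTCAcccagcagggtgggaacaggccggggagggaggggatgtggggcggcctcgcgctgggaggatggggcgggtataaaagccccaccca

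The AP-1 letters occurred in 2 of the 8 entries, S100a11 and Anxa2, against 6.749% of all 32851 entries. The first match began 136 bases before the start of S100a11, which holds 2, and the match of Anxa2 began 95 bases before its start. TATAAA occurred in 3 of the 8 entries (Anxa2, S100a4 and Vim), against 12.37% of all. The NF-kB motif occurred in 0 of the 8 entries and in 0.3562% of all, and the cyclic AMP response element TGACGTCA in 0 of the 8 and in 1.546% of all. A match in these windows is a description and not a site.

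After filtering, 28101 cells remained, with 17358231 to 53653855 UMIs per library and 3987 to 15795 median UMIs per cell. Replicate 2 of both DNT groups was made with kit v3 and all other libraries with kit v2, so replicate and kit cannot be told apart. The sort genes followed the labels: Cd3e was at 337 to 526 CPM in all libraries, Cd4 at 137 CPM in CD4 and at most 0.20 CPM in both DNT groups, and Cd8a at 492 CPM in CD8. Libraries of the same kit shared 3 to 36 cell barcodes. RNA of other cells differed between libraries: the summed level of 9 myeloid genes was 2037 and 308 CPM in naive DNT, 178 and 249.1 CPM in activated DNT, 545 for CD4, 211 for CD8 and 685 for TCRab. Lyz2, a defining myeloid gene, was at 317 and 63.9 CPM in naive DNT and at 0 and 0.79 CPM in activated DNT, where C1qa and C1qb were at 0. Of 7 B cell genes the sum was 320 and 422 CPM in naive DNT and 25.7 and 44.8 CPM in activated DNT. Red cell genes (5) summed to 3697 and 819 CPM in naive DNT, 0 and 0.44 CPM in activated DNT, and 2153 to 2834 CPM in the 3 other libraries. The 3 platelet genes stayed at or below 4.94 CPM and the 4 stromal genes at or below 0.41 CPM in every library, with Col3a1 at 0 in all 7.

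The summed level of the 10 genes, in CPM (UMIs of a gene scaled to a fixed library total), was 3384 and 3366 in naive DNT and 3735 and 5089 in activated DNT, against 1890 in CD4, 1432 in CD8 and 1796 in TCRab. All 4 DNT libraries lay above the 3 others, and the activated libraries above the naive ones. Within that sum the genes did not follow one pattern. A level summed over a library holds both the number of cells with a transcript and the RNA per cell, which cannot be told apart from the sum. These are counts of 3′ ends, and levels are compared between libraries and not between genes.

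**Figure D1:**
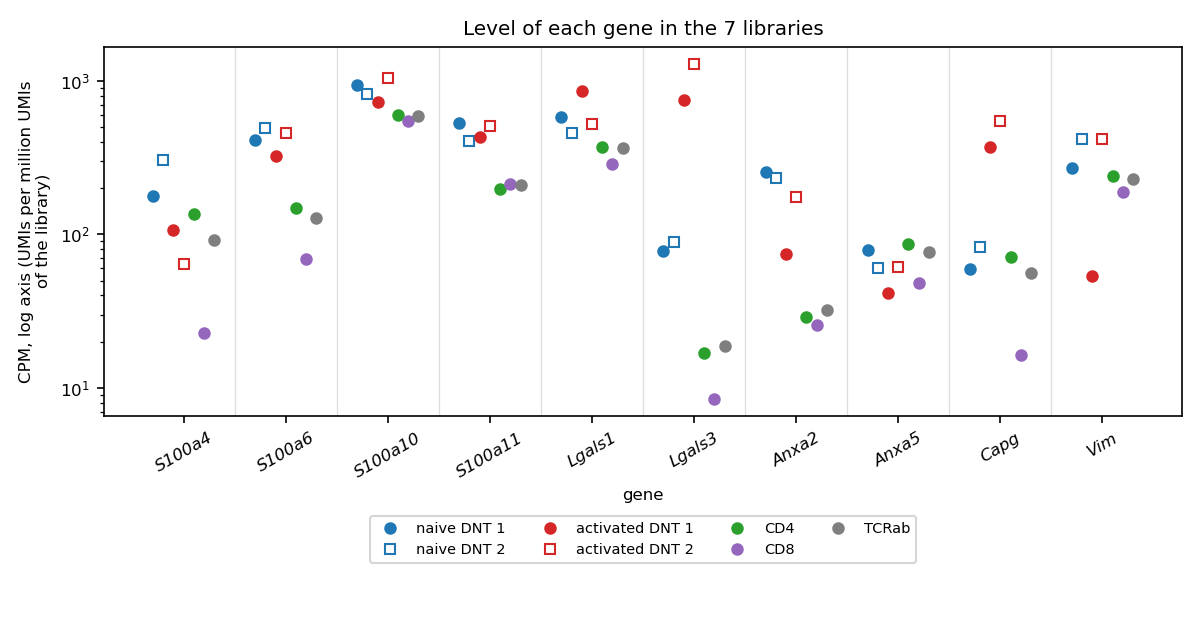
Level of each gene in CPM (log axis) in the 7 libraries, 1 point per library; filled circles are kit v2 and open squares kit v3. Lgals3 and Capg stand highest in both activated libraries (745 and 1291 CPM, and 371 and 551 CPM), and Anxa2 and S100a4 in both naive libraries.

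Of the S100 genes, S100a4, which encodes a calcium-binding protein of motile cells that binds non-muscle myosin, was at 178 and 305 CPM in naive DNT, 107 and 64.4 CPM in activated DNT, 136 CPM in CD4, 22.9 CPM in CD8 and 92.1 CPM in TCRab. The naive libraries were highest and did not overlap any other. CD8 had the lowest value, at a share of cells no higher than in the B-marker cells described below. S100a6 (calcyclin) was at 413 and 491 CPM in naive DNT, 323 and 456 CPM in activated DNT, 148 CPM in CD4, 69.6 CPM in CD8 and 128 CPM in TCRab. The 2 DNT groups overlapped and lay above the other libraries.

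S100a10, which encodes the annexin A2 partner, was at 940 and 825 CPM in naive DNT, 727 and 1050 CPM in activated DNT, 597 CPM in CD4, 549 CPM in CD8 and 588 CPM in TCRab. As a fold, from lowest to highest library, its range was the narrowest of the 4 S100 genes. S100a11 was at 528 and 407 CPM in naive DNT, 433 and 504 CPM in activated DNT, 196 CPM in CD4, 212 CPM in CD8 and 211 CPM in TCRab. The DNT groups overlapped for both genes, and every DNT library was above CD4, CD8 and TCRab.

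Of the galectins, Lgals1 (galectin-1) was at 584 and 454 CPM in naive DNT, 859 and 521 CPM in activated DNT, 370 CPM in CD4, 289 CPM in CD8 and 364 CPM in TCRab. The DNT groups overlapped, and activated replicate 1 was highest. Lgals3 (galectin-3) was at 78.2 and 88.9 CPM in naive DNT, 745 and 1291 CPM in activated DNT, 16.8 CPM in CD4, 8.49 CPM in CD8 and 18.8 CPM in TCRab. It spanned the widest range of the 10 genes, in 3 steps that did not overlap: activated DNT, naive DNT, and the other sorts.

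Of the annexins, Anxa2 was at 253 and 232 CPM in naive DNT, 74.7 and 174 CPM in activated DNT, 28.8 CPM in CD4, 25.7 CPM in CD8 and 32.4 CPM in TCRab. Naive DNT was highest, activated DNT lay between, and the groups did not overlap. Anxa5 was at 78.8 and 60.8 CPM in naive DNT, 41.2 and 61.7 CPM in activated DNT, 86.7 CPM in CD4, 48.3 CPM in CD8 and 76.5 CPM in TCRab. Its groups overlapped, and of the 10 genes only Anxa5 was highest in CD4.

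Capg, the actin-capping gene, was at 59.3 and 82.1 CPM in naive DNT, 371 and 551 CPM in activated DNT, 71.2 CPM in CD4, 16.4 CPM in CD8 and 55.6 CPM in TCRab. CD4 lay between the 2 naive libraries and TCRab just under them, activated DNT was above all others and CD8 below. Vim was at 271 and 419 CPM in naive DNT, 53.4 and 416 CPM in activated DNT, 239 CPM in CD4, 190 CPM in CD8 and 230 CPM in TCRab. As a fold, the 2 activated libraries differed more for Vim than for any other of the 10 genes, with activated replicate 1 the lowest of all 7.

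With stimulation, Lgals3 and Capg rose and none of the 10 genes fell past the threshold. In edgeR's quasi-likelihood test of summed counts, 2 against 2 libraries, 2 of the 10 were called higher and 0 lower at a Benjamini-Hochberg adjusted p of 0.05, while 5.32% of all 12325 genes tested were called higher and 5.06% lower. At an unadjusted p under 0.05 S100a4 and Anxa2 were lower (0.0250 and 0.0433). The CPM of the 2 groups did not overlap for 4 of the 10 genes, 2 above and 2 below, where 30.8% of all tested genes had both activated libraries above and 21.1% both below. The median log2 fold change was −0.29 over the 10 genes and −0.05 over all genes tested.

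Lgals3 rose 10.7-fold (log2 fold change 3.42 ± 0.53 SE, adjusted p = 0.0134, n = 2 against 2 libraries), by 9.53-fold within kit v2 and 14.5-fold within kit v3. Capg rose 5.89-fold (log2 fold change 2.56 ± 0.46 SE, adjusted p = 0.0196), by 6.25-fold and 6.71-fold within the kits. Folds within a kit, here and below, are ratios of CPM, while the pooled folds are edgeR estimates after its own scaling of libraries. The pooled value can therefore lie outside the 2 kit values. Leaving out naive replicate 1 gave Capg an adjusted p of 0.0916 and leaving out naive replicate 2 one of 0.0904, while Lgals3 passed in all 4 fits without 1 library, at most at 0.0490. Without cells above 2.5 times the median UMIs of their library (145 and 304 cells of the activated libraries), neither gene passed, with log2 fold changes of 3.15 (adjusted p = 0.0579) for Lgals3 and 2.46 (adjusted p = 0.0770) for Capg. Without cells carrying 4 or more genes of the myeloid, B cell or red cell list, or 3 of the platelet or stromal list (150 and 163 naive cells), the log2 fold changes were 3.66 and 2.64 and both genes passed.

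S100a4 was lower after stimulation at a log2 fold change of −1.50 ± 0.53 SE (adjusted p = 0.117), and Anxa2 at −1.22 ± 0.50 SE (adjusted p = 0.162). Fitted with the replicate number, which is also the kit, as a block, both were called lower (S100a4 −1.62, adjusted p = 0.0119; Anxa2 −1.22, adjusted p = 0.0337), where 19.9% of all genes were called higher and 19.8% lower. DESeq2 also called S100a4 (adjusted p = 0.0399), as did edgeR without the filter on low counts (0.0487). S100a4 was 0.604-fold of naive within kit v2 and 0.211-fold within kit v3, and Anxa2 0.295-fold and 0.749-fold. Thus both were lower in each kit, by different amounts.

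Vim was 0.197-fold of naive within kit v2 and 0.993-fold within kit v3, and the pooled log2 fold change of −0.84 ± 0.77 SE (adjusted p = 0.533) has an error close to its size. Without activated replicate 2 it was −2.54. It was −2.01 (adjusted p = 0.128) without cells above 2.5 times the median UMIs and −1.59 (adjusted p = 0.252) on cells thinned to 1500 UMIs. Within kit v3 the share of thinned cells with Vim was 36.2% in naive and 16.96% in activated DNT, so the even CPM there does not show an even share of cells. The log2 fold changes of S100a6 (−0.37 ± 0.46 SE), S100a10 (−0.20 ± 0.52), S100a11 (−0.20 ± 0.53) and Lgals1 (0.29 ± 0.62) were all smaller than their standard errors. Anxa5, the phosphatidylserine binder, was at −0.67 ± 0.44. Adjusted p of these 5 genes ranged from 0.369 to 0.849, and with 2 libraries a group changes of this size are within the error. S100a10, S100a11 and Lgals1 took the other sign when 1 library was left out (S100a10 and S100a11 without naive replicate 1, Lgals1 without naive replicate 2 or activated replicate 1).

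Naive DNT compared with CD4, CD8 and TCRab was higher for Lgals3, Anxa2 and S100a6 against all 3. With 1 library in each of the other groups there was no test; a gene counted as different where both naive libraries were 2-fold or more from the other library in one direction and the higher libraries all reached 20 CPM. Against CD4, 4 of the 10 genes were higher and 0 lower, where 4.08% of all 5441 genes compared were higher and 0.992% lower. Against CD8, 5 were higher and 0 lower (3.55% and 0.389% of 5404 genes), and against TCRab 3 were higher and 0 lower (3.11% and 0.879% of 5459 genes). These 3 comparisons share the naive libraries, and TCRab cells include both CD4 and CD8 cells. The counts were the same, 4, 5 and 3, without cells carrying 4 or more genes of another cell list, and 4, 7 and 4 with naive replicate 1 alone, which has the same kit.

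Anxa2 had the largest measured ratios against CD4 and TCRab. Its level in naive replicates 1 and 2 was 8.79 times (95% counting interval 8.08 to 9.57) and 8.06 times (7.44 to 8.75) that of CD4, 9.85 and 9.03 times that of CD8, and 7.83 and 7.18 times that of TCRab. The intervals cover counting error only, not the spread between animals. Lgals3 was 4.66 and 5.29 times CD4, 9.21 and 10.5 times CD8, and 4.15 and 4.72 times TCRab. The thinned shares of Anxa2 and Lgals3 in CD4, CD8 and TCRab cells were under those of the B-marker cells described below. The size and rank of the Anxa2 and Lgals3 ratios are therefore not read, only their direction. S100a6 was 2.79 and 3.31 times CD4, 5.93 and 7.05 times CD8, and 3.23 and 3.84 times TCRab.

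S100a4 and Capg differed mainly from CD8. S100a4 was 7.78 and 13.3 times CD8, against 1.31 and 2.25 times CD4, and Capg was 3.62 and 5.02 times CD8, against 0.833 and 1.15 times CD4. The CD4 library itself was 5.94 times CD8 for S100a4 (counting interval 5.42 to 6.52) and 4.35 times for Capg (3.89 to 4.87). The share of CD8 cells with S100a4 was no higher than in the B-marker cells described below. The size of the S100a4 ratios to CD8 is therefore not read. S100a11 was 2.69 and 2.07 times CD4, with ratios on either side of 2 against CD8 (2.49 and 1.92) and TCRab (2.51 and 1.93). S100a10, Lgals1, Anxa5 and Vim met the rule against none of the 3 groups, and Anxa5 was 0.909 and 0.701 times CD4.

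Levels in the sums were carried by different shares of cells. To set libraries of unequal depth side by side, each cell was thinned to 1500 UMIs; 0 to 80 shallower cells per library were left out (43 and 80 in naive DNT, 0 and 75 in activated DNT, 38 in CD4, 10 in CD8 and 36 in TCRab). Anxa2 had a UMI in 29.0% and 25.5% of thinned naive DNT cells and 11.9% and 17.2% of activated cells, but in 2.12% of CD4, 2.97% of CD8 and 2.82% of TCRab cells. Without thinning the Anxa2 shares were 56.1% and 63.1%, 51.3% and 56.1%, 4.97%, 7.63% and 5.92% in the same order. At both depths the separation lay between the DNT libraries and the others.

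Lgals3 was found in 5.47% and 7.05% of thinned naive cells, 32.4% and 36.3% of activated cells, 0.800% of CD4, 0.753% of CD8 and 1.20% of TCRab cells. Unthinned, its shares were 9.95% and 15.1%, 73.2% and 58.2%, 1.77%, 1.48% and 2.12%. Thinned cells with Lgals3 held a mean of 1.79 and 1.62 Lgals3 UMIs in naive and 2.89 and 3.55 in activated DNT. So both the share of cells and the UMIs per cell with the gene were higher in the activated libraries.

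Capg was in 5.87% and 8.29% of thinned naive and 33.4% and 30.1% of activated cells, 7.80% of CD4, 2.17% of CD8 and 6.53% of TCRab cells (unthinned 11.3%, 18.0%, 80.8%, 57.7%, 18.4%, 6.19% and 14.7%). S100a6 was in 28.6% and 27.2% of thinned naive and 22.4% and 25.6% of activated cells, and in 7.68%, 4.59% and 6.32% of CD4, CD8 and TCRab cells (unthinned 45.5%, 51.6%, 58.2%, 50.9%, 12.3%, 8.25% and 10.5%). S100a4, at 10.3% and 15.2% of naive cells, was in fewer than S100a6 in each library. Its other thinned shares were 6.25% and 3.53% in activated DNT, 6.24% in CD4, 1.38% in CD8 and 4.46% in TCRab, and unthinned it was in 17.5%, 25.8%, 26.4%, 12.7%, 11.3%, 2.86% and 7.62%.

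S100a10 was the most widely found of the 10, in 50.3% to 69.2% of thinned cells of every library (unthinned 81.4% to 95.1%). S100a11 was in 39.7% to 49.9% of thinned DNT cells and 19.8% to 27.0% of the others (unthinned 82.2% to 94.8%, and 41.3% to 61.9%). Lgals1 was in 21.7% to 38.9% of thinned cells over the 7 libraries, with shares in DNT in another order than its CPM (unthinned 46.1% to 82.0%). Vim was in 5.14% and 16.96% of thinned activated cells and in 21.5% to 36.2% elsewhere (unthinned 23.7% and 35.6%, and 44.3% to 68.9%). Anxa5 was in 5.47% to 12.9% of thinned and 21.1% to 43.9% of unthinned cells.

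A cell type that should lack these genes gives the level of free RNA only in part, since B cells carry some of them. In 106 cells of naive replicate 2 with 4 or more B cell genes (median 5206 UMIs, against 7577 in the other cells), thinned shares were 1.89% for Lgals3, 2.83% for S100a4, and 3.77% for both S100a6 and Anxa2. Those for Lgals1 and Anxa5 were 7.55%. These lie under the shares of all cells of that library for S100a4, S100a6, Lgals1, Lgals3 and Anxa2, while for Anxa5 (8.17%) the share of all cells was close to that of the B-marker cells. Capg (30.2%) stood above, and Vim (29.2%), S100a10 (41.5%) and S100a11 (20.8%) below, the share of all cells. Other libraries held 0 to 4 such cells and gave no value. The thinned shares of Lgals3 and Anxa2 in CD4, CD8 and TCRab cells, and of S100a4 in CD8 cells, were at or under those of the B-marker cells, so no order among these 3 sorts is read from them.

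The number of the 10 genes found in one thinned cell had a median of 2 in each DNT library and 1 in CD4, CD8 and TCRab. Its mean was 2.74 and 2.60 in naive DNT, 2.48 and 2.71 in activated DNT, 1.58 in CD4, 1.41 in CD8 and 1.55 in TCRab (unthinned 4.46, 5.10, 6.29, 5.32, 2.96, 2.93 and 2.87). Cells with 5 or more were 14.0% and 14.9% of naive DNT, 13.8% and 20.5% of activated DNT, 4.24% of CD4, 1.72% of CD8 and 3.85% of TCRab. Cells with none were 5.64% and 9.24%, 9.99% and 12.4%, 20.4%, 21.6% and 20.7%. Naive and activated DNT overlapped in the mean, and both lay above the other sorts.

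**Figure D2:**
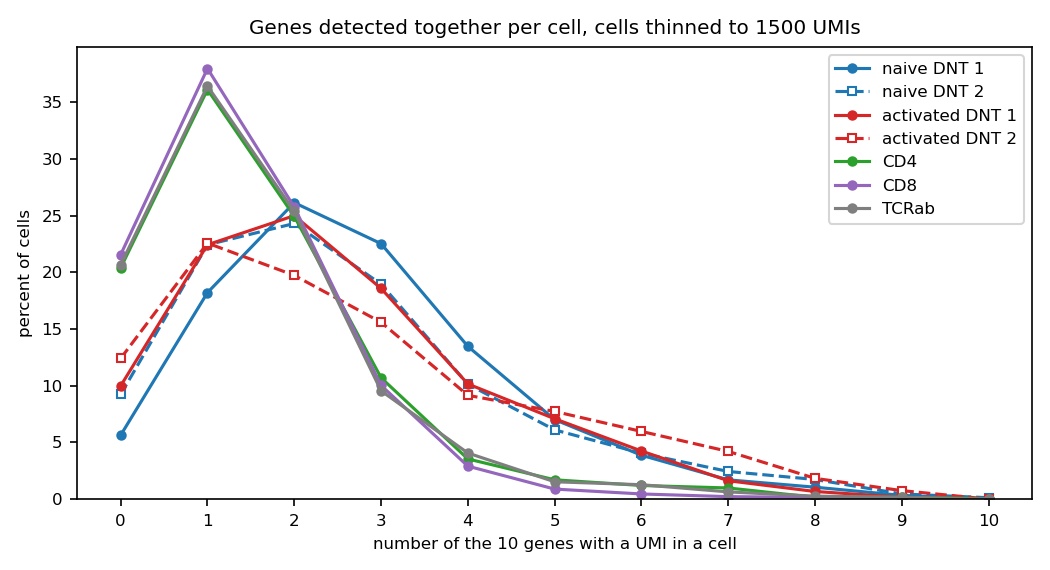
Share of cells (percent) by the number of the 10 genes with a UMI, cells thinned to 1500 UMIs, 1 line per library. CD4, CD8 and TCRab peak at 1 gene and the DNT libraries reach further right, with 13.8% to 20.5% of their cells at 5 or more genes.

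For each of the 45 pairs of genes the share of thinned cells with both was divided by the product of the 2 shares, so 1 means independent detection. The ratio was above 1 for 43 and 43 pairs in naive DNT, 45 and 45 in activated DNT, 44 for CD4, 44 for CD8 and 45 for TCRab. The median over pairs was 1.19 and 1.33 in naive DNT, 1.32 and 1.49 in activated DNT, 1.83 in CD4, 1.65 in CD8 and 1.74 in TCRab. Cells share a library and its free RNA, so these ratios describe each library without a test. The ratio cannot exceed 1 over the larger share of the pair, so its ceiling differs between libraries. Ratios of libraries with unlike shares, and their medians, therefore do not rank how strongly the genes go together. In naive DNT the highest ratios, 4.06 to 4.90, were those among S100a4, Lgals3 and Capg. In activated DNT the highest was that of S100a4 with Vim in replicate 1 (2.61) and of S100a4 with Lgals1 in replicate 2 (3.22).

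S100a4 and S100a6 lie 6837 bases apart on chromosome 3. They were found together 2.31 and 2.55 times as often as independent detection gives in naive DNT and 2.27 and 2.92 times in activated DNT. The ratio was 5.88 in CD4, 14.0 in CD8 and 9.33 in TCRab. In naive replicates 1 and 2, S100a6 was in 65.9% and 69.3% of cells with S100a4 and in 24.3% and 19.6% of cells without. In CD4 the corresponding shares were 45.2% and 5.19%. The ratio was above 2 in all 7 libraries. The other S100 pair of that chromosome, S100a11 and S100a10, reached 1.07 to 1.22. Both genes are in many cells, which bounds the ratio.

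S100a4 and Lgals3 had ratios of 4.90 and 4.06 in naive DNT and 2.095 and 2.119 in activated DNT. In naive DNT Lgals3 was in 26.8% and 28.7% of S100a4 cells against 3.01% and 3.19% of the others. The ratios in CD4 (12.01), CD8 (24.9) and TCRab (10.99) rest on 30, 12 and 25 cells with both. Lgals3 and Capg went together at 4.83 and 4.63 in naive DNT and at 1.34 and 1.60 in activated DNT, where each was in about as many cells as the other (32.4% and 33.4% in replicate 1). Before stimulation Lgals3 and Capg thus lay in few, partly shared cells, and afterwards in many cells with a ratio nearer 1.

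Anxa2 had ratios near 1 with these genes in naive DNT: 0.87 and 0.92 with S100a4, 0.954 and 0.769 with Capg, 1.16 and 1.16 with Lgals3, and 1.10 and 1.12 with S100a6. Without type 17-marker cells that with S100a4 was 0.97 and 1.06. Anxa2 and S100a4 had ratios of 6.65 in CD4, 7.36 in CD8 and 6.72 in TCRab, resting on 44, 14 and 36 cells with both. With S100a10, its protein partner, the ratio was 1.03 and 1.04 in naive DNT, 1.17 and 1.17 in activated DNT, 1.63 in CD4, 1.38 in CD8 and 1.53 in TCRab. S100a10 was in 71.3% and 64.5% of naive cells with Anxa2 and 68.4% and 61.4% of those without. The partners were therefore detected almost independently in naive DNT at this depth. Leaving out the cells with 4 genes of another cell list, the type 17-marker cells or the regulatory-marker cells described below kept the S100a4 and S100a6 ratio at 2.14 or above in every library.

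**Figure D3:**
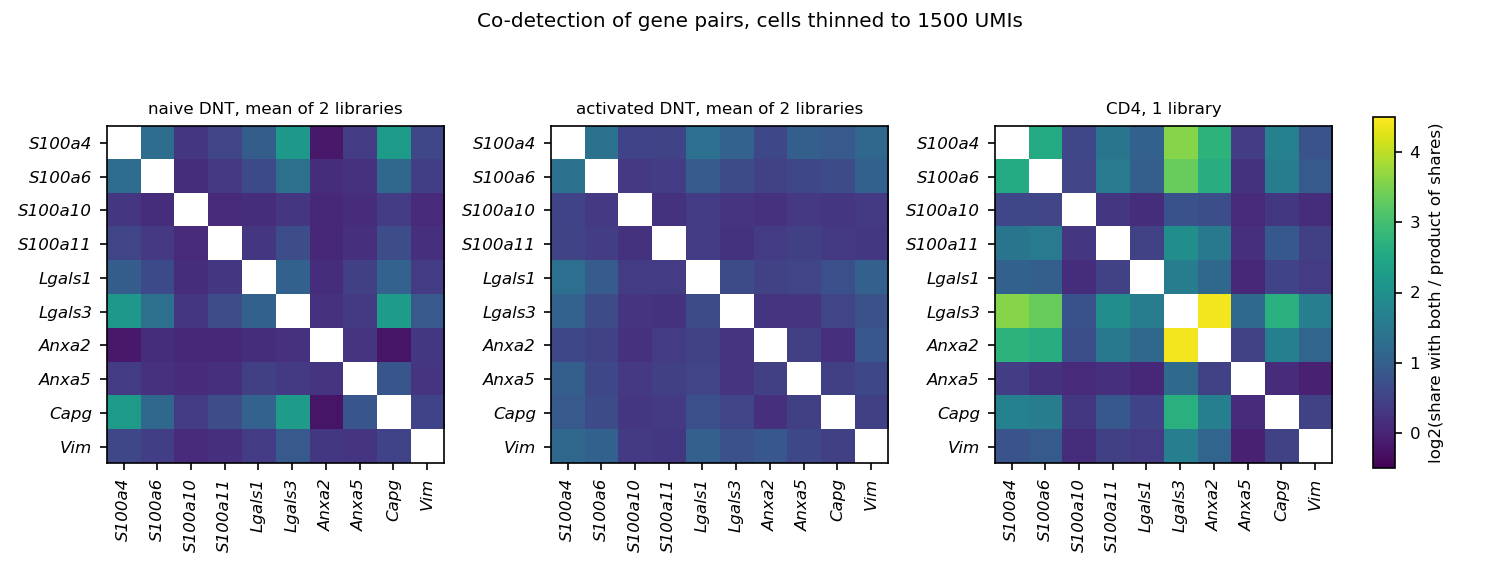
Log2 of the share of cells with both genes over the product of the 2 shares, for each pair, in naive DNT and activated DNT (mean of 2 libraries each) and CD4 (1 library); the colour scale is the same and 0 is independent detection. The S100a4, S100a6, Lgals3 and Capg pairs are brightest in naive DNT. Lgals3 with Anxa2 is brightest in CD4, a ratio of 21.2 that rests on 18 cells with both genes. No single pair of activated DNT stands as high, but larger shares put a lower ceiling on the ratio.

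Cells of the 5 unstimulated libraries were classed by genes outside the 10: resting-marker cells had UMIs of at least 2 of 7 resting markers, among them Ccr7, Lef1 and S1pr1, and none of the effector markers Cd44, Itgb1, Il2rb, Cxcr3, Cxcr6, Ccl5, Nkg7, Id2, Maf and Il18r1, and effector-marker cells the converse. Effector-marker cells were 33.3% and 23.0% of naive DNT, 2.28% of CD4, 5.34% of CD8 and 3.88% of TCRab. Resting-marker cells were 0.200% (8 cells) and 1.68% (112 cells) of naive DNT, 55.1% of CD4, 11.5% of CD8 and 37.6% of TCRab. The cells labelled naive DNT thus rarely carried resting markers alone, and 62.4% and 71.4% of them carried markers of both kinds. That share was 72.5% in CD8, 42.7% in TCRab and 18.2% in CD4, so it is not particular to DNT. The effector marker Ccl5 was at 11766 and 6407 CPM in naive DNT, 1555 CPM in CD8, 835 CPM in TCRab and 176 CPM in CD4. The part of free Ccl5 RNA in these shares was not tested. Median depth in effector-marker and resting-marker cells was 4178 and 2655 UMIs in naive replicate 1, 7713 and 5410 in naive replicate 2, 3946 and 4130 in CD4, 5517 and 4682 in CD8, and 4130 and 3829 in TCRab, and its part in the differences was not tested beyond the thinned alternative. The classes are ranges of detected markers, and 42.6% to 83.2% of cells of a library fell in neither.

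Effector-marker cells had higher levels of 8 of the 10 genes than resting-marker cells of the same libraries (edgeR with the library as a block, 5 libraries, Benjamini-Hochberg adjusted p under 0.05), and 0 were lower. Of all 7577 genes tested, 4.79% were called higher and 1.7% lower. The median log2 fold change was 2.0 over the 10 genes and 0.01 over all genes. S100a4, S100a6 and Lgals3 had the largest differences, Lgals1, Capg and S100a11 smaller ones, and Vim and S100a10 about 2-fold.

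S100a4 was at 307, 645, 1523, 160 and 901 CPM in effector-marker cells of naive replicates 1 and 2, CD4, CD8 and TCRab, and at 0, 47.8, 21.7, 1.17 and 8.99 CPM in their resting-marker cells. The 2 classes did not overlap, and the gene was higher in 5 of 5 libraries (log2 fold change 5.62 ± 0.55 SE, adjusted p = 0.00628); in resting-marker cells of naive replicate 1 it had 0 UMIs in 8 cells, so the fold is a fitted value and no bound. S100a6 was at 607, 886, 1230, 545 and 1121 CPM against 40.7, 59.4, 25.0, 5.86 and 9.94 CPM (5.52 ± 0.52, adjusted p = 0.00401, 5 of 5 libraries). Lgals3 was at 120, 156, 224, 60.7 and 189 CPM against 0, 20.3, 5.001, 0.39 and 2.68 CPM (5.09 ± 0.49, adjusted p = 0.00555, 5 of 5 libraries).

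These 3 genes separated the classes in every library, in naive replicate 1 with 0 or 1 UMIs in its resting-marker cells. Lgals1 was at 786, 741, 2152, 971 and 1558 CPM against 611, 261, 232, 156 and 216 CPM (log2 fold change 2.26 ± 0.22 SE, adjusted p = 7.96e-13). Capg was higher by 1.73 ± 0.20 (adjusted p = 4.56e-06), Vim by 1.11 ± 0.16 (adjusted p = 1.61e-07) and S100a11 by 1.68 ± 0.34 (adjusted p = 0.0342), each in 5 of 5 libraries. In naive replicate 1 the values were 93.3 against 81.5 CPM for Capg, 319 against 285 CPM for Vim and 586 against 367 CPM for S100a11. Its resting-marker cells held 2, 7 and 9 UMIs of these genes, too few to read a direction from that library. S100a10 was higher by 1.04 ± 0.21 (adjusted p = 0.000277) in 4 of 5 libraries, the exception being naive replicate 1 with 1006 CPM in effector-marker and 1141 CPM in its 8 resting-marker cells. Without naive replicate 1, S100a10 (adjusted p = 0.0762) and S100a11 (adjusted p = 0.225) no longer passed.

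The 2 annexins were the genes not called. Anxa2 was at 258, 241, 224, 109 and 157 CPM in effector-marker cells and 204, 123, 8.48, 12.1 and 4.89 CPM in resting-marker cells, higher in effector-marker cells of each library and, in resting-marker cells, higher in naive DNT than in CD4, CD8 and TCRab. In naive replicate 1 the resting-marker value rests on 5 Anxa2 UMIs. The log2 fold change of 3.14 ± 0.79 SE did not pass (adjusted p = 0.147), with 5 of 5 libraries in that direction. It passed with DESeq2 (2.92, adjusted p = 0.00113), on thinned cells (3.64, adjusted p = 1.23e-16) and without naive replicate 2 (4.02, adjusted p = 1.34e-30). Anxa5 was at 76.9, 64.3, 125, 46.6 and 97.7 CPM against 285, 92.7, 81.7, 43.0 and 76.5 CPM (−0.07 ± 0.15 SE, adjusted p = 0.981) and was higher in 3 of 5 libraries.

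The mean number of the 10 genes per thinned cell was 4.05 in effector-marker and 1.34 in resting-marker cells of CD4, 3.70 and 1.27 in TCRab, 2.27 and 1.24 in CD8, and 3.25 and 1.78 in naive replicate 2. Resting-marker cells of naive replicate 2 therefore lay above those of CD4, CD8 and TCRab, and CD8 effector-marker cells below those of the other libraries. Within classes the median co-detection ratio over pairs was 1.22 in effector-marker and 1.16 in resting-marker CD4 cells and 1.27 and 1.02 in TCRab, below the 1.83 and 1.74 over all cells of those libraries. In the effector-marker cells of naive replicates 1 and 2 it was 1.25 and 1.33, against 1.19 and 1.33 over all cells, and in those of CD8 1.69 against 1.65.

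**Figure D4:**
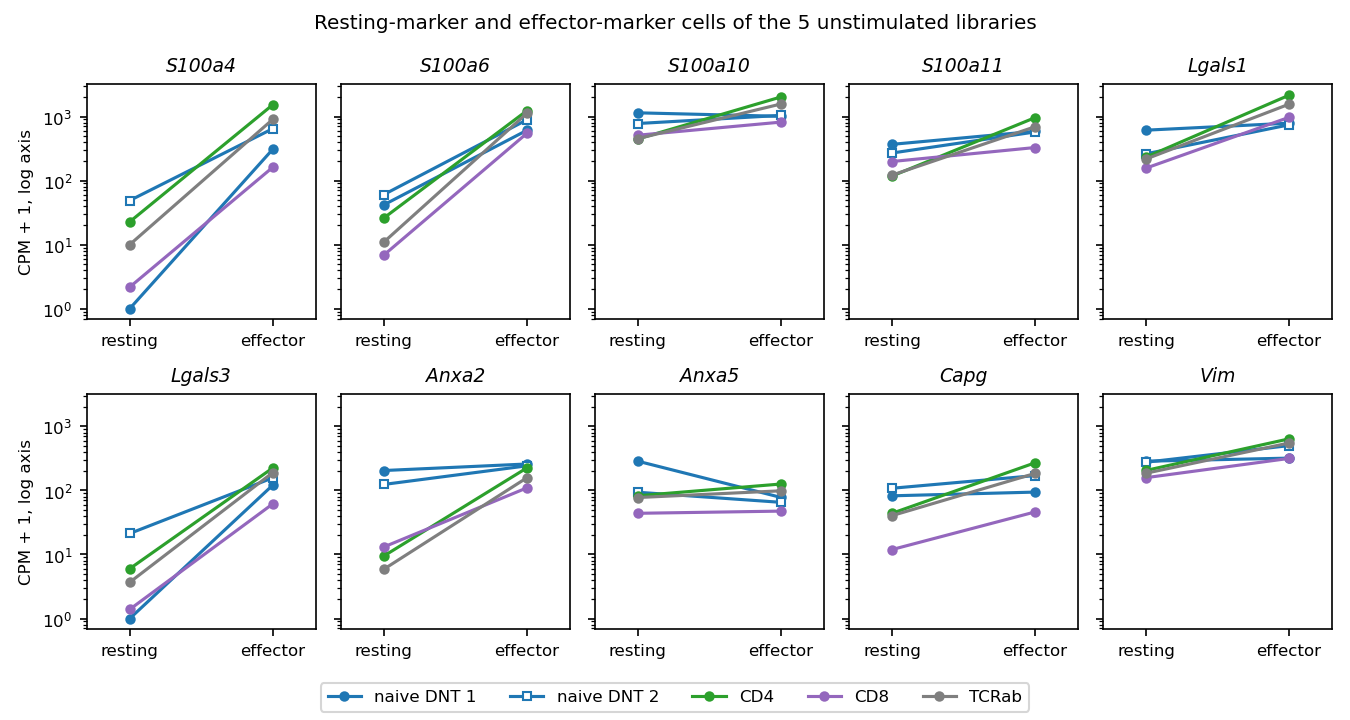
CPM + 1 (log axis) of each gene in resting-marker and effector-marker cells, 1 line per unstimulated library. S100a4, S100a6 and Lgals3 rise in all 5 libraries, and Anxa5 has no common direction. Anxa2 is higher in effector-marker cells of each library, from a higher resting level in naive DNT (204 CPM on 5 UMIs, and 123 CPM).

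Within naive DNT the genes were concentrated in a minority of cells with type 17 markers (at least 2 of 8, among them Il17a, Il23r, Ccr6 and Tmem176a), 124 cells (3.10%) of replicate 1 and 560 cells (8.42%) of replicate 2. S100a4 was at 2144 and 1958 CPM in them and 107 and 147 CPM in the other cells, and Capg at 665 and 513 CPM against 37.6 and 41.1 CPM. Lgals3 was at 679 and 419 CPM against 56.6 and 57.4 CPM, S100a6 at 2567 and 2297 CPM against 335 and 318 CPM, and Lgals1 at 2600 and 1673 CPM against 512 and 339 CPM. All 5 genes were higher in the type 17-marker cells of both libraries. With 2 libraries these are values without a test.

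The type 17-marker cells held 41.9% and 56.0% of the S100a4 UMIs of their libraries, 38.9% and 54.4% of Capg, 30.2% and 41.1% of Lgals3 and 21.6% and 40.8% of S100a6. They held 2.57% and 5.34% of the Anxa2 UMIs, below their share of cells, and Anxa2 was at 187 and 142 CPM in them against 255 and 241 CPM in the other cells. Per thinned cell they had a mean of 5.98 and 5.52 of the 10 genes, against 2.63 and 2.33. Their median depth was 4634 and 7707 UMIs, against 4102 and 7538. The larger share of type 17-marker cells in replicate 2 went with its higher S100a4 level (305 against 178 CPM), and whether it sets that level was not tested.

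Cells with NK receptor markers (at least 2 of Klrd1, Klrc1, Klra7, Klra1, Klrb1c, Klre1, Fcer1g and Tyrobp) differed from the other cells the opposite way for several of these genes. They were 1473 cells (36.8%) and 1566 cells (23.6%) of naive replicates 1 and 2. Anxa2 was at 322 and 350 CPM in them and 214 and 195 CPM in the other cells. Capg was at 22.7 and 13.4 CPM against 80.2 and 104 CPM, and S100a4 at 116 and 139 CPM against 213 and 357 CPM. Vim was at 306 and 533 CPM against 252 and 383 CPM. Anxa2 and Vim were thus higher in the NK receptor cells of both libraries, and Capg, S100a4 and Lgals1 (461 and 327 CPM against 655 and 495 CPM) lower.

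In CD4, 129 cells (2.58%) carried at least 2 regulatory markers (Foxp3, Il2ra, Ctla4, Ikzf2 and Tnfrsf18). S100a6 was at 1209 CPM in them against 122 CPM in the other cells, Capg at 449 against 61.8 CPM and S100a4 at 783 against 120 CPM. Anxa5 was at 85.2 against 86.7 CPM. The mean number of the 10 genes per cell was 3.20 against 1.54. Of the 10 genes 9 were higher in these cells, by 2.47-fold (Vim) to 9.95-fold (S100a6), and Anxa5 was not.

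**Figure D5:**
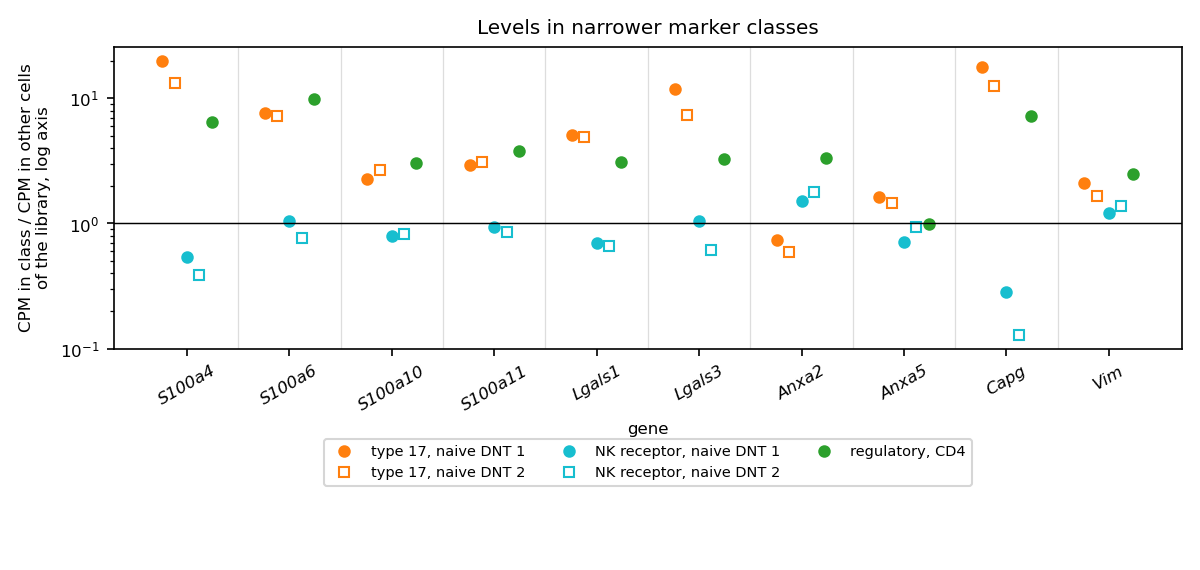
CPM in a marker class divided by CPM in the other cells of its library (log axis), for type 17 and NK receptor cells of the 2 naive DNT libraries and regulatory-marker cells of CD4. S100a4 and Capg are 12.5-fold to 20.0-fold higher in type 17-marker cells, and Anxa2 is below 1 there and above 1 in NK receptor cells.

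In activated DNT, 105 and 89 thinned cells (5.86% and 6.04%) carried at least 2 of 8 division genes, such as Mki67 and Top2a. Before thinning their median depths were 26862 and 48611 UMIs, against 14978 and 9337 in the other cells. Vim was at 91.0 and 862 CPM in dividing-marker cells against 49.8 and 317 CPM, and S100a11 at 315 and 388 CPM against 444 and 531 CPM. Lgals3 was at 794 and 1527 CPM against 741 and 1241 CPM, and Capg at 309 and 544 CPM against 377 and 553 CPM. The high levels of Lgals3 and Capg were therefore found both in cells with and in cells without detected division markers. Thinning can leave dividing cells among the others, so dividing and resting cells are not separated here. The difference of Vim between activated libraries was present in both kinds of cell.

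Over the 7 libraries, genes were ranked by Pearson's r with the mean of the 10 genes on the log2(CPM + 10) scale, as a description with no p, among 2117 genes at 50 CPM or more. Each of the 10 is itself part of that mean, which raises its r, so these values do not compare with those of other genes. Of the 10 S100a6 was closest to the mean (r = 0.97), then S100a10 (0.93) and S100a11 (0.91), and Vim (0.20) and Anxa5 (−0.06) were farthest. The nearest other genes were Med10 (0.98), H3f3b (0.98), Ngdn (0.97), Klhdc2 (0.97) and Cript (0.97). H3f3b, a histone H3.3 gene, was at 1827 and 2003 CPM in naive DNT, 1668 and 1928 CPM in activated DNT, 959 CPM in CD4, 635 CPM in CD8 and 947 CPM in TCRab. The libraries share groups and kits, so r here mostly ranks DNT against the other sorts.

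The share of all tested genes called with stimulation, 5.32% higher and 5.06% lower (with the block 19.9% and 19.8%), stands behind each list count given here. Of the 31 other genes whose symbols start as those of the S100, galectin or annexin genes do, 19 were abundant enough to test for stimulation; Lgals7 and S100a1 rose and Anxa6 fell. Anxa6, an annexin of the plasma membrane and endosomes, was at 215 and 255 CPM in naive and 48.9 and 49.6 CPM in activated DNT (log2 fold change −2.37 ± 0.45 SE, adjusted p = 0.0231). S100a1 was at 4.29 and 2.79 CPM and rose to 33.5 and 19.1 CPM (2.78 ± 0.62, adjusted p = 0.0361), and Lgals7 was at 0.58 and 0.86 CPM and rose to 9.69 and 3.65 CPM (3.22 ± 0.72, adjusted p = 0.0357). With the block 4 rose and 5 fell. S100a8 and S100a9, myeloid genes of the family, were at 835 and 591 CPM in naive replicate 1 and 23.0 and 28.4 CPM in naive replicate 2, and were not called. Between marker classes 10 of the 31 were tested, and S100a13, Anxa6 and Lgals3bp were higher in effector-marker cells and 0 were lower.

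Of 20 other memory and effector genes 0 rose and 7 fell with stimulation (with the block 0 and 12), with a median log2 fold change of −1.47. Ccl5, a chemokine of effector cells, fell from 11766 and 6407 CPM to 391 and 497 CPM (log2 fold change −4.61 ± 0.77 SE, adjusted p = 0.0159), and Ly6c2 (−4.22), Il18r1 (−3.68) and Klf6 (−3.13) also fell. Of 12 resting genes 0 rose and 7 fell (with the block 1 and 7), among them Klf2 (−4.55), Dapl1 (−4.39) and Il6ra (−3.88). Of 12 proliferation genes 12 rose, led by Ccna2 (4.34), Aurkb (4.17), Cdk1 (4.17) and Tk1 (4.10). Lgals3 and Capg thus rose while no gene of the memory and effector list did.

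Of 22 actin cytoskeleton genes, the setting of Capg, Stmn1 rose (3.07 ± 0.50 SE, adjusted p = 0.0149) and Lsp1 fell (−1.97 ± 0.47, adjusted p = 0.0419), with a median of −0.35; both counts are near the share over all genes. With the block 1 rose and 8 fell. Of 8 genes of intermediate filaments and the nuclear lamina, the setting of Vim, Sun2 (−2.12) and Syne1 (−2.12) fell and 0 rose, with a median of −1.38 (with the block 1 rose and 5 fell). These lists were drawn up with results of these data known and describe the surroundings of the 10 genes only.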

How the data were processed

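Single T cells of 7 mouse spleen libraries were profiled. The matrices the authors deposited hold raw UMI counts per gene and barcode. Per the submitters' processing notes they were made with Cell Ranger 2.1.0 and 3.0.1, and headers of the kit v3 matrices name version 3.0.2; which version made which library is not given in the sources used here. Cells needed 200 genes or more and no more than 10% mitochondrial UMIs, and CPM was computed over the 27514 genes in both references (0.400% to 0.594% of UMIs lay outside). No doublet caller was run; cells above 2.5 times the median UMIs were left out as an alternative.

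Counts summed per library (or library and class) were tested with edgeR 4.0.16 (filterByExpr, TMM, robust quasi-likelihood, Benjamini-Hochberg over all genes tested), in R 4.3.3 with DESeq2 1.42.0 as an alternative and Python 3.11.15, NumPy 2.4.6, SciPy 1.17.1 and pandas 2.3.3 for the rest. The tests were also run on simulated counts with a common dispersion for all genes and no kit effect. That run does not give their error rate in these data. The design text calls the DNT libraries biological replicates. Same-numbered libraries share a kit, and their deviations from group means correlated at r = 0.617 over 12325 genes, so the number was also fitted as a block. Genes are named by rule: the 10 genes, up to 4 called genes of a list per direction, and the 5 nearest by r; S100a8, S100a9, S100a13 and Lgals3bp were added after their values were seen. A gene the rule names, and some markers of the cell classes, are not reported here. Intervals are exact at 95%. The 10 genes and all lists were chosen with earlier results of these data known.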

Additional observations from a re-analysis of the deposited data

Results flagged for a closer look

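Anxa5 in effector-marker over resting-marker cells went in opposite directions between groups. On the log2(CPM + 10) scale the mean ratio over the 2 naive DNT libraries was −1.12, with both libraries below 0, while it was 0.56 for CD4, 0.095 for CD8 and 0.32 for TCRab. The difference between groups was not tested, since CD4, CD8 and TCRab have 1 library each. The resting-marker class of naive replicate 1 held 8 cells and 7 Anxa5 UMIs, and that of naive replicate 2 held 112 cells and 64 Anxa5 UMIs.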

How the results depend on the processing

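For activated against naive DNT, 2 of the 10 genes and 1280 of all genes were called. With the replicate block the numbers were 4 and 4894, and without cells above 2.5 times the median UMIs 0 and 96; with 1 library left out they ranged from 1 to 3 and from 547 to 2074. All genes called were 2390 with DESeq2, 2188 without the filter and 304 on thinned cells, where fewer counts entered. Leaving out 1 library moved the log2 fold changes of Lgals1 from −0.41 to 0.84, of S100a10 from −0.54 to 0.24 and of S100a11 from −0.60 to 0.37. For effector-marker against resting-marker cells, 8 of the 10 and 492 of all genes were called, 211 on thinned cells and 1103 without the filter; with 1 library left out the ranges were 6 to 9 and 354 to 633, and Anxa5 ranged from −0.17 to 0.080. With naive replicate 1 alone, 84, 37 and 74 genes were lower than CD4, CD8 and TCRab, against 54, 21 and 48. Thinned to 3000 UMIs, the mean number of genes per cell was 3.92 and 3.72 in naive DNT, 3.56 and 3.70 in activated DNT, 2.45 in CD4, 2.21 in CD8 and 2.41 in TCRab, since deeper cells show more genes. Except where depth or the number of libraries is named, the cause was not tested. The block changed no call of the 10 genes other than S100a4 and Anxa2. Leaving out cells with genes of another cell list, cells above 2.5 times the median, and type 17-marker or regulatory-marker cells from co-detection was chosen after seeing the data, except for the setting with 2 such genes. RLE scaling and all deposited barcodes changed no call of the 10 genes.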
